A study of Arabidopsis thaliana with 8 samples.

Results

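The response to heat shock was described in Arabidopsis thaliana seedlings labelled til1-1, which carry a mutation in TIL (AT5G58070), the temperature-induced lipocalin gene. Its members were the 4 arrays labelled til1-1 of the 8 arrays in the study, chosen by their sample titles: 2 from seedlings kept at 22 °C and 2 from seedlings heated at 37 °C. The other 4 arrays held wild-type seedlings (Col-0) at the same temperatures, 2 per group. Each array was a biological replicate, total RNA from a pool of about 100 plants that were 7 days old, with heated seedlings harvested directly after the treatment. The sources used here give neither the length of the heat shock nor the nature of the til1-1 lesion. No transgene or further allele is named for any group. Whole seedlings were sampled, so that fewer cells of a type and less RNA per cell cannot be told apart.

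Heat shock unfolds proteins, and plant cells answer with heat shock factors, which switch on chaperone genes within minutes. Small heat shock proteins hold unfolding proteins in a soluble state, HSP100 and HSP70 with its DnaJ partners refold them, and HSP90 with its organizing proteins completes the folding of its clients. TIL is a small lipid-binding protein of membranes, itself raised by heat, and plants that lack it are known to be sensitive to heat.

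The targeted gene was examined before any other. TIL read 3167.6 and 3047.8 intensity units on the arrays labelled til1-1 at 22 °C and 5803.7 and 5341.8 at 37 °C. In wild type it read 3795.1 and 3132.3 at 22 °C and 21245.7 and 20289.7 at 37 °C. The til1-1 arrays lay apart from wild type at 37 °C, whereas at 22 °C 1 of them read within the range of the wild-type arrays. The level at 22 °C thus did not bear out the label, which it would not test if the probes lay elsewhere in the gene than the lesion. The mutant arrays are therefore called samples labelled til1-1. In these samples TIL rose by a log2 fold change of 0.84 ± 0.09 (standard error from limma, as for every error of a log2 value here; n = 2 arrays per group throughout), with a limma adjusted p of 1.43e-05, and in wild type by 2.58. The difference between the responses was -1.75 (95% confidence interval -2.02 to -1.47), with a limma adjusted p of 0.000204 for the interaction and of 0.106 when the spread was moderated without an intensity trend. The chloroplast lipocalin CHL, the other measured member of the family, read 3713.7 and 3620.8 at 22 °C and 3884.1 and 4233.9 at 37 °C, a log2 fold change of 0.14 that did not pass. It was called higher, at 0.49, with array medians set equal and lower, at -0.33, after scaling to spiked controls.

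More probe sets were called lower than higher after heat shock in the samples labelled til1-1, as the arrays were deposited. Of 17059 tested probe sets, 2174 were higher (12.7% called) and 5389 lower (31.6% called) at a limma adjusted p under 0.05 with Benjamini-Hochberg adjustment, the test behind every call here. By at least 2-fold, 674 were higher (3.95%) and 1504 lower (8.82%). The annotation used did not list 8730 of the probe sets other than controls, and gave several genes for 503. Gene counts, gene lists and rankings of genes leave these out. Counted once per gene, 9285 genes were tested. Of these, 1081 were higher (11.6% called) and 2835 lower (30.5% called), and by at least 2-fold 314 were higher (3.38%) and 795 lower (8.56%). The median log2 fold change over these genes was -0.18. This balance depended on the scaling of the arrays: the median over genes was 0.13 when all arrays were given the same median (array medians set equal), -0.05 by quantile normalization and -0.62 by scaling to 9 spiked control probe sets. Higher calls made up 28.7% of all calls as deposited, and 66.5%, 40.4% and 6.62% under those scalings in that order. In all 4 scalings 382 genes were higher and 1292 were lower. Changes of gene groups are therefore read against the median of all genes. Log2 values are of intensity plus 16, so that the change of a dim gene is understated.

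The largest rises among the annotated genes were those of small heat shock proteins. HSP17.6C (AT1G53540), a cytosolic member, read 7.7 and 11.3 at 22 °C and 33137.0 and 33062.6 at 37 °C. For scale, 25% of all probe sets on the 2 control arrays read below 36.3 to 40.6 units. Its log2 fold change was 10.35 ± 0.15 with a limma adjusted p of 6.2e-14. HSP26.5 (AT1G52560) read 1.5 and 10.5 before and 21049.3 and 18934.8 after heat shock. HSP22.0 (AT4G10250), a member of the endoplasmic reticulum, read 13.5 and 44.3 before and 28383.5 and 29060.8 after. For these dim starting levels the arrays of a group differ by up to severalfold, so that the size of the fold is uncertain while the groups do not overlap. HSP23.5 (AT5G51440), a mitochondrial member, went from 96.8 and 92.5 to 19639.5 and 19450.1.

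Of 10 small heat shock protein genes named by the annotation, 8 rose and 1 fell, beside 11.6% higher and 30.5% lower among all genes. Their median log2 fold change was 7.53 against -0.18 over all genes. The 8 rises ranged from 4.23 for HSP18.5 (AT2G19310) to 10.35. HSP18.5 read 1081.5 and 1104.0 units at 22 °C and reached 20686.8 and 20990.4. HSP15.4 (AT4G21870) read 1981.9 and 1993.9 at 22 °C and 1344.7 and 1733.5 at 37 °C. Its log2 fold change of -0.38 ± 0.13 passed, with a limma adjusted p of 0.0374, but not with array medians set equal (-0.04, adjusted p 0.845), without a filter on dim probe sets (0.0657) or without an intensity trend (0.124). The call was also lost without the til1-1 array of replicate 1 at 37 °C (-0.20, limma adjusted p 0.296) and without replicate 1 (0.112) or replicate 2 (0.123) at 22 °C. HSP21.7 (AT5G54660) had a log2 fold change of -0.26 and did not pass, but was called lower after scaling to spiked controls (-0.71) and without the til1-1 array of replicate 1 at 37 °C (-0.40, limma adjusted p 0.0482). Under each of the 4 scalings 8 of the 10 were higher.

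Partners of the large chaperones rose in the same samples. Of 17 tested genes, among 18, for HSP70, HSP90 and HSP100 proteins, chaperonins and their cofactors, 14 were higher and 1 lower. Their median log2 fold change was 2.64, and 11.6% of all genes were higher and 30.5% lower. Hop3 (AT4G12400), which joins HSP70 to HSP90, read 108.3 and 114.2 before and 22981.4 and 21792.4 after heat shock, a log2 fold change of 7.46 ± 0.10. Its relative Hop2 rose by 2.64 on the log2 scale, and Hop1 had a log2 fold change of 0.14 that did not pass, and that was called at 0.48 with array medians set equal and at -0.32 after scaling to spiked controls. The 3 organizers thus ranged from a 202-fold ratio of mean intensities in Hop3 to no call in Hop1. ROF2 (AT5G48570), an HSP90-binding immunophilin, went from 188.4 and 200.2 to 25895.5 and 25232.5. Fes1A (AT3G09350), a nucleotide exchange factor of HSP70, went from 288.3 and 245.9 to 16859.4 and 17023.1. HSA32 (AT4G21320), which prolongs acquired thermotolerance, went from 83.0 and 78.4 to 5685.5 and 5310.1.

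Further cofactors followed at smaller sizes. AT3G12050, an activator of the HSP90 ATPase, rose from 908.1 and 916.2 to 19842.9 and 19944.4, a log2 fold change of 4.42 ± 0.07. SGT1A, an HSP90 partner in immune receptor folding, rose by 3.07 on the log2 scale and SQN, a cyclophilin of the HSP90 complex, by 1.72. Among the plastid chaperonin subunits the directions parted. Cpn60beta2 rose from 1256.1 and 1301.1 to 16384.4 and 16230.0, a log2 fold change of 3.66 ± 0.07. Cpn60beta4 fell from 674.7 and 760.0 to 395.6 and 372.1, a log2 fold change of -0.87 ± 0.11 with a limma adjusted p of 6.49e-05. Among 11 tested DnaJ-domain genes, 5 rose and 6 were not called, beside 11.6% higher and 30.5% lower among all genes. Their median was thus only 0.17. AT1G71000 and AT2G20560 were placed in this list by locus, with earlier results of these data known. AT1G71000 went from 15.1 and 21.4 to 18437.9 and 18271.2, and AT2G20560 from 93.1 and 100.2 to 15044.8 and 15182.9. AT3G14200 went from 195.7 and 148.0 to 3594.8 and 3364.0, a log2 fold change of 4.23 against 3.49 in wild type. That difference of 0.73 (95% confidence interval 0.35 to 1.12) did not pass the interaction test, with a limma adjusted p of 0.6.

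In the endoplasmic reticulum, where unfolded proteins activate membrane-bound bZIP factors, 4 of 10 measured genes rose and 1 fell, with a median of 0.24. Among all genes 11.6% were higher and 30.5% lower. DER1, of the machinery that extracts misfolded proteins, went from 627.0 and 573.6 to 5095.1 and 5158.5, a log2 fold change of 3.06 ± 0.09. BZIP28 rose by 1.60, DER2.1 by 0.74 and BZIP60 by 0.57 on the log2 scale. PDIL5-1, of the disulfide isomerase family, fell by 0.46, a call lost with array medians set equal and without the til1-1 array of replicate 2 at 22 °C (limma adjusted p 0.0628). The calls of DER2.1 (0.27) and BZIP60 (0.11) were lost by the spiked controls. After scaling to spiked controls 2 of the 10 genes were higher and 4 lower. Of 38 tested genes of the ubiquitin pathway, which tags proteins for degradation, 4 rose and 10 fell, against 11.6% and 30.5% of all genes. SK18, an adaptor subunit of ubiquitin ligases, rose from 297.9 and 305.2 to 1139.6 and 1117.9. ATL63, a RING-type ubiquitin ligase, fell from 77.0 and 111.1 to 4.4 and 4.7, and the ubiquitin proteases UBP21 (-1.12) and UBP22 (-1.01) fell as well. Among 11 autophagy genes, 5 rose by 0.27 to 0.43 on the log2 scale and none was called lower, against the same shares of all genes. With array medians set equal 8 of the 11 were higher, and after scaling to spiked controls 3 were lower and 0 higher.

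The 25 largest rises reached beyond chaperones. The mitochondrial gene nad6 and AT5G25450, a nuclear gene for a small subunit of respiratory complex III, were among them. AT5G25450 read 184.2 and 174.7 at 22 °C and 16803.2 and 17484.6 at 37 °C, a log2 fold change of 6.46 ± 0.09. AT1G21550, an EF-hand calcium-binding protein gene, went from 67.4 and 89.1 to 8092.8 and 8227.8 (6.45 ± 0.18). AT1G30070 went from 171.8 and 186.9 to 21760.3 and 21429.3 (6.79 ± 0.09), and AT5G10695 from 324.8 and 354.6 to 26657.5 and 26263.0 (6.22 ± 0.07). AT1G67360, a protein of lipid droplets, rose from 397.3 and 375.6 to 20221.4 and 18383.6, and AT5G12110, a subunit of a translation elongation factor, from 294.8 and 316.9 to 15173.7 and 15461.6. AT1G10260, AT5G07330, AT4G27657 and AT1G44414 were dim at 22 °C, at 0.7 to 63.5 units, and reached 1427.0 to 3734.7 units. AT5G35320 rose by 5.95 ± 0.09 on the log2 scale. All 25 passed with limma adjusted p-values from 7.73e-15, in ROF2, to 2.44e-07, in AT1G44414.

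**Figure D1:**
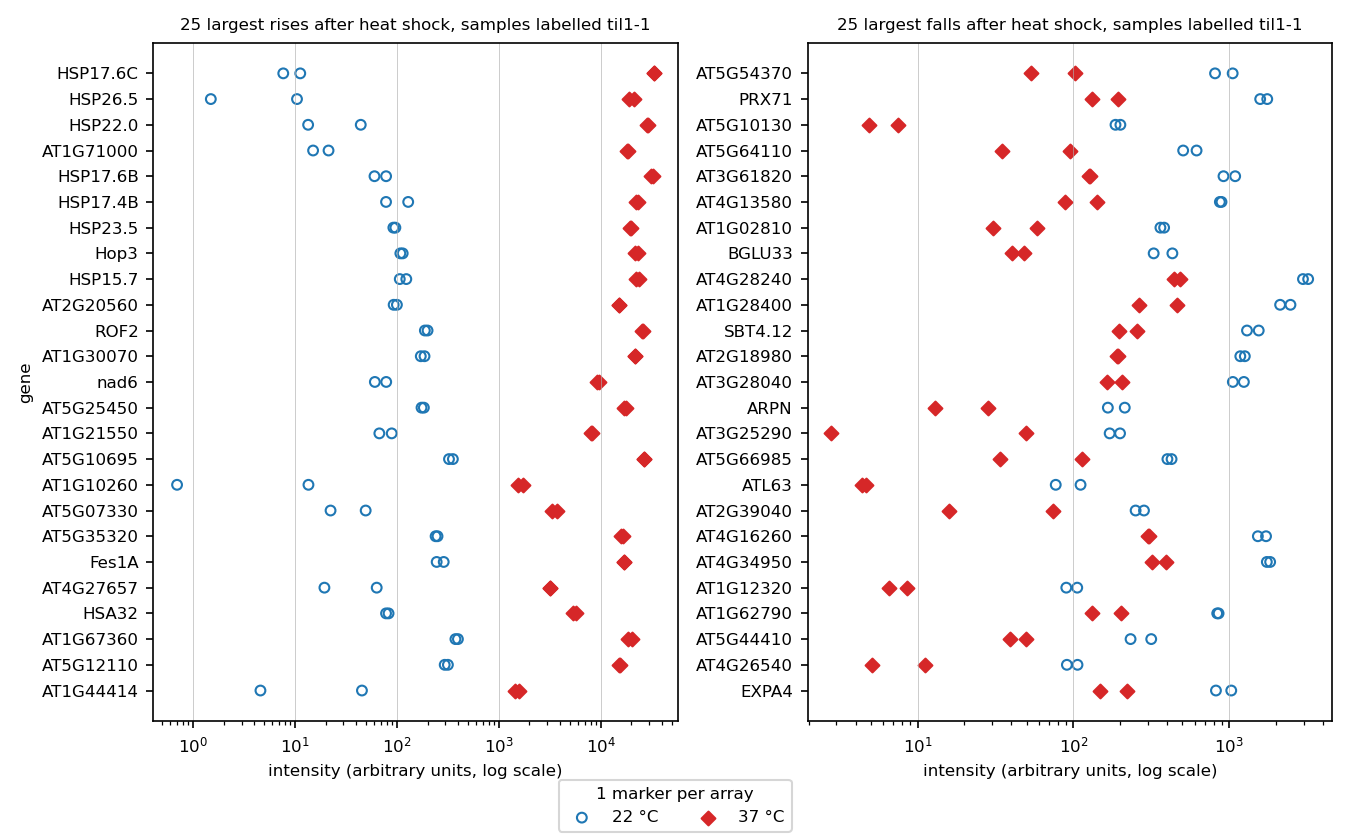
Intensity on a log axis of the 25 genes with the largest rises (left) and falls (right) in the samples labelled til1-1, with 1 open circle per array at 22 °C and 1 diamond per array at 37 °C. In HSP17.6C the heated arrays stand at 33137.0 and 33062.6 against 7.7 and 11.3, and in AT5G54370, the largest fall, at 102.1 and 53.1 against 1051.1 and 810.1.

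Transcription factor and calcium genes moved in both directions. Among 6 tested WRKY genes, which act in defence and senescence, 2 rose and 2 fell, beside 11.6% higher and 30.5% lower among all genes. WRKY53 went from 85.0 and 62.4 to 280.5 and 243.1, WRKY22 from 180.2 and 124.6 to 352.4 and 352.3, and WRKY6 in the other direction, from 289.3 and 386.2 to 67.2 and 65.4. Their log2 fold changes were 1.64 ± 0.24, 1.15 ± 0.19 and -2.09 ± 0.18. STZ (also ZAT10), a zinc finger repressor of stress responses, reached 2868.8 and 2773.4 at 37 °C. Its arrays at 22 °C differed from each other, at 1045.9 and 393.4, and its log2 fold change of 2.11 ± 0.42 has a wide error. ORA47, an AP2-type activator of jasmonate synthesis, rose by 1.04 ± 0.33, and its call was lost without the til1-1 array of replicate 2 at 22 °C (0.52, limma adjusted p 0.237) or at 37 °C (0.0971), without a filter on dim probe sets (0.0518) and without an intensity trend (0.0787). AGL16, a MADS-box gene, fell from 369.1 and 435.4 to 99.4 and 103.2, and none of the 6 other tested AGAMOUS-like genes was called, of 40 annotated. Heat shock factors, MYB factors, calcium-dependent kinases, aquaporins and ABC transporters are not analysed here, as the annotation used named none of them alone for a probe set.

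Of 20 tested genes for calmodulin-like and IQD proteins, the sensors and scaffolds of calcium signals, 3 rose and 9 fell, beside 11.6% and 30.5% of all genes, with a median of -0.48. The share that rose is near that background. The 3 rises were all in calmodulin-like genes. Members were drawn by gene symbol, and the EF-hand gene AT1G21550, with a log2 fold change of 6.45, was not among them. CML37 went from 14.4 and 2.0 to 228.7 and 208.9, CML38 from 159.6 and 113.3 to 1031.8 and 853.4 and CML23 from 175.9 and 147.8 to 469.1 and 854.0. CML41 fell from 72.1 and 109.6 to 4.8 and 14.2, a log2 fold change of -2.07 ± 0.34 against -0.13 in wild type, a difference with a limma adjusted p of 0.6. CML42 (-0.96) and the scaffold gene IQD19 (-1.40) fell too. With array medians set equal 5 of the 20 genes were lower, and after scaling to spiked controls 16 were.

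The tested transcripts of the mitochondrial genome, picked by gene name, all rose. Among other products, this genome encodes core subunits of the respiratory chain, of cytochrome c assembly and a maturase for intron splicing. The names taken were those of nad, cox, cob, ccb and ccm genes, matR and orfX, so that its other genes were not counted. All 15 tested genes were higher, with a median log2 fold change of 3.0, and all 15 were higher under each of the 4 scalings, while nad2 was too dim to be tested. Of complex I, the NADH dehydrogenase, nad6 went from 60.9 and 78.7 to 9247.4 and 9502.7, a log2 fold change of 6.78 ± 0.12. The other subunits rose by 4.83 in nad5, 4.20 in nad4L, 3.95 in nad9, 3.0 in nad1, 2.21 in nad7 and 1.35 in nad4. Of cytochrome c oxidase, cox2 went from 115.1 and 99.3 to 2369.1 and 2173.5 and cox1 from 1141.6 and 1315.9 to 4666.2 and 4629.6. The log2 fold changes of these subunits were 4.22 ± 0.11 and 1.91 ± 0.10, and in neither did the groups overlap. The cytochrome c maturation genes ccb203 (3.78), ccb452 (2.94), ccb382 (1.76) and ccb206 (1.47), the maturase gene matR (3.0) and orfX (0.94) completed the list.

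Probe sets of the same mitochondrial gene did not all give the same size. Of 7 probe sets for nad1, whose exons are joined from separate transcripts, 5 rose by 2.40 to 3.69 on the log2 scale. The other 2, at 19.3 to 43.9 units at 22 °C, each had a log2 fold change of 0.98, with limma adjusted p-values of 0.0631 and 0.0338. The 2 probe sets of nad5 rose by 5.44 and 4.83. A copy of much of the mitochondrial genome lies in chromosome 2 of the nucleus, and the array cannot assign signal between near-identical copies. Of 20 tested loci, among 30, in that block (numbers from AT2G07674 to AT2G07777), 19 were higher, with a median of 3.16. AT2G07749 read 2.8 and 3.0 at 22 °C and 509.6 and 389.6 at 37 °C, and AT2G07722 went from 106.5 and 118.0 to 2931.4 and 2395.8.

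Control probe sets, read here as signs of RNA composition, did not all move the same way. The control probe set for 25S ribosomal RNA, a transcript without a poly(A) tail, read 269.8 and 410.4 at 22 °C and 2398.8 and 3625.1 at 37 °C. Wild-type arrays read 335.3 and 368.6 for it at 22 °C and 1828 and 3967 at 37 °C. Ratios of the 3′ to the 5′ control probe set were 10.2 and 12.1 at 22 °C and 12.7 and 12.5 at 37 °C for actin. For GAPDH they were 1.67 and 1.73 against 1.88 and 1.93, and for ubiquitin 2.53 and 2.45 against 2.27 and 2.37. The part of RNA composition in the rise of the organelle transcripts was not tested.

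**Figure D2:**
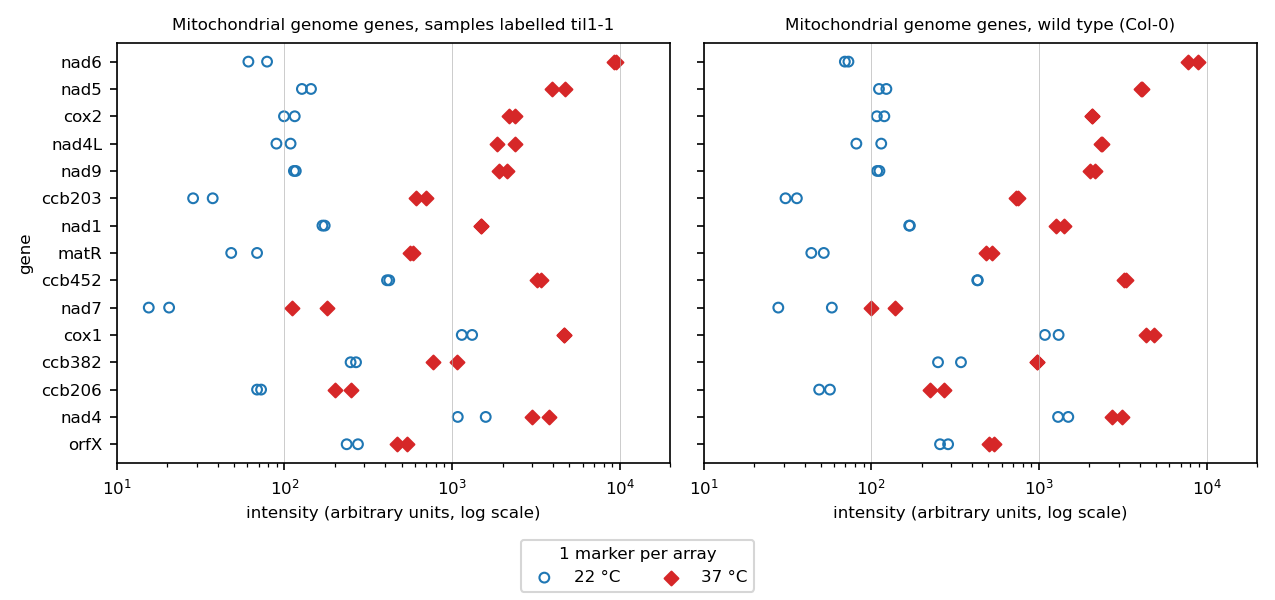
Intensity on a log axis of the 15 tested genes of the mitochondrial genome in the samples labelled til1-1 (left) and in wild type (right), with 1 open circle per array at 22 °C and 1 diamond per array at 37 °C. In the samples labelled til1-1 every gene is brighter at 37 °C, from orfX, at 537.0 and 471.9 against 234.9 and 274.3, to nad6, at 9247.4 and 9502.7 against 60.9 and 78.7.

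Genes of the plastid genome had a smaller median. Of 69 tested, 46 were higher and 3 lower (median 0.55 on the log2 scale), beside 11.6% and 30.5% of all genes. Genes of photosynthetic complexes carried most of these calls. Of 20 genes for photosystems I and II 18 were higher (median 0.70), as were all 6 for the cytochrome b6f complex (0.70), all 6 for the ATP synthase (0.65) and 8 of 10 for the NDH complex (0.52). The photosystem II reaction centre gene psbA went from 10855.4 and 12521.2 to 21548.5 and 21044.8 (0.87 ± 0.08), and psaB of photosystem I from 15316.7 and 17465.7 to 29631.4 and 29070.4 (0.84 ± 0.07), both without a call after quantile normalization (0.16 and 0.07). The cytochrome b6f gene petG went from 1055.9 and 1110.6 to 2821.8 and 2581.7 (1.3 ± 0.24), and ndhD from 6543.8 and 7143.4 to 12229.1 and 13957.7 (0.93 ± 0.10).

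The plastid genes for gene expression differed from these in their counts. Of 15 ribosomal protein genes 2 were higher and 3 lower (median 0.14), and of 4 RNA polymerase genes 1 was higher (median 0.28). The falls were those of rpl22, from 6017.2 and 8370.5 to 4715.5 and 4215.6 (-0.67 ± 0.12), rpl36 (-0.54) and rps18 (-0.33, and 0.01 with array medians set equal). The call of rps18 was also lost without an intensity trend (limma adjusted p 0.0516) and without the til1-1 array of replicate 2 at 22 °C (0.103) or replicate 1 at 37 °C (0.0595). The plastid list was sensitive to scaling: 61 genes were higher and 2 lower with array medians set equal, 20 and 11 with quantile normalization, and 12 and 13 by the spiked controls. For the photosystem genes no scaling gave a lower call, with 20, 7 and 7 of 20 higher in the same order. Of the ribosomal protein genes 2, 7 and 9 of 15 were lower.

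Nuclear genes of photosynthesis were raised slightly as deposited, and not under the other scalings alike. Of 12 tested, 9 were higher and 1 lower, with a median of 0.38, beside 11.6% higher and 30.5% lower among all genes. PSAE-1 of photosystem I went from 15037.6 and 16462.2 to 27018.3 and 27099.8 (0.78 ± 0.07), and RCA, the activase of the carbon-fixing enzyme rubisco, from 15849.4 and 16112.4 to 24533.0 and 24597.0 (0.62 ± 0.07). After quantile normalization these values were -0.03, not called, and -0.18, called lower, and RCA was not called by the spiked controls (0.15). LHCB4.3, a light-harvesting protein, fell by 0.50 ± 0.14. Its call was lost with array medians set equal (-0.18), with quantile normalization (-0.31), and without the til1-1 array of replicate 2 at 22 °C (limma adjusted p 0.117) or at 37 °C (0.0829). Of the 12 genes, 0 were higher and 6 lower after quantile normalization, whereas 1 was higher and 3 lower by the spiked controls.

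Among genes of energy metabolism 4 of 12 rose and 2 fell, beside 11.6% higher and 30.5% lower among all genes, with a median of 0.03. With array medians set equal 7 were higher and 0 lower, after quantile normalization 3 and 5, and by the spiked controls 3 and 8. CYTC-2, a cytochrome c gene, went from 517.8 and 646.2 to 2224.2 and 2494.5, a log2 fold change of 2.00 ± 0.11, whereas its paralogue CYTC-1 had a log2 fold change of -0.16 and did not pass, though it was called lower with quantile normalization (-0.37) and by the spiked controls (-0.63). PDC2, a pyruvate decarboxylase of fermentation, rose by 1.00 ± 0.09 and SDH2-2, an iron-sulfur subunit of succinate dehydrogenase, by 0.88 ± 0.11. Of 12 tested genes tied to abscisic acid, dehydration and cold, 5 rose and 1 fell. With array medians set equal 7 of these were higher and 0 lower, after quantile normalization 4 and 1, and by the spiked controls 3 and 6. The dehydrin gene COR47 went from 8276.2 and 6986.9 to 26031.2 and 23168.9 (1.69 ± 0.09), and the late embryogenesis abundant genes AtLEA4-1 and LEA18 rose by 1.14 and 1.11. The call of LEA18 was lost without 1 of 3 arrays labelled til1-1 in turn, with limma adjusted p-values of 0.0516 to 0.0606. OPCL1, a peroxisomal enzyme of jasmonate synthesis, went from 218.0 and 222.7 to 1013.4 and 1167.2, a log2 fold change of 2.22 ± 0.11.

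The 25 largest falls, of 2.25 to 3.38 on the log2 scale, included several genes for proteins of the cell wall. AT5G54370 headed them, with 1051.1 and 810.1 units at 22 °C and 102.1 and 53.1 at 37 °C, a log2 fold change of -3.38 ± 0.23 and a limma adjusted p of 3.02e-07. AT5G10130 went from 200.1 and 186.2 to 4.9 and 7.5, where the constant of 16 limits its log2 fold change to -3.24, and ATL63 and AT1G12320 ended as low. AT4G13580, a dirigent protein gene of the family that guides lignan and lignin coupling, went from 891.3 and 870.0 to 88.4 and 141.4. AT1G02810, a pectin methylesterase gene, went from 361.5 and 381.8 to 30.3 and 58.4, and AT3G61820, an aspartyl protease gene, from 918.0 and 1090.8 to 125.4 and 127.0. The receptor kinase genes AT3G28040 (-2.54 ± 0.13) and AT4G26540 (-2.26 ± 0.45), the plantacyanin gene ARPN (-2.52 ± 0.28) and the glycosyl hydrolase gene AT4G16260 (-2.36 ± 0.11) fell too. AT4G28240, of a wound-responsive family, went from 3206.7 and 2969.9 to 485.7 and 438.7. All 25 passed with limma adjusted p-values from 2.49e-09, in AT2G18980, to 0.00161, in AT4G26540.

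Class III peroxidases, secreted enzymes that cross-link or loosen the cell wall, were mostly lower. Of 54 annotated genes 41 passed the filter on dim probe sets and were tested, and 35 of these were lower, 6 were not called and none was higher, against 30.5% lower among all genes, with a median log2 fold change of -1.16. PRX71 (AT5G64120) went from 1578.4 and 1752.0 to 131.0 and 194.2, a log2 fold change of -3.26 ± 0.19. AT2G18980 went from 1176.8 and 1258.0 to 193.8 and 191.1 (-2.56 ± 0.11). PRX71, AT2G18980 and AT5G64110 were placed in this list by locus, with earlier results of these data known. PRX71 and its neighbours by gene number, AT5G64110 (-2.94) and AT5G64100 (-1.38), all fell. They are close relatives whose transcripts may share probes, so that their single values are uncertain. PRXR1 had the smallest called change, from 14555.5 and 14914.3 to 10908.0 and 11756.1 (-0.38 ± 0.06), a call lost with array medians set equal. None was higher under the other scalings, and the lower calls numbered 29 when array medians were made equal, 31 by quantile normalization and 39 by the spiked controls.

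Expansins loosen the growing cell wall. Of 14 tested expansin genes, among 19 annotated, 10 fell and 2 rose, with a median of -1.12. Among all genes 30.5% were lower and 11.6% higher. EXPA4 went from 821.1 and 1029.5 to 220.2 and 147.1, EXPA15 from 428.7 and 482.6 to 117.2 and 116.2, and the root hair expansin EXPA7 from 266.9 and 246.6 to 51.0 and 85.0. The rises were both in expansin-like A genes: EXLA2 went from 56.8 and 63.1 to 188.6 and 150.8 (1.28 ± 0.20) and EXLA1 from 582.3 and 551.2 to 1037.2 and 964.0 (0.80 ± 0.13). Both kept their direction and call under each of the 4 scalings. Of 30 tested genes for xyloglucan, cellulose and pectin enzymes, among 40, 16 fell and 1 rose, against the same shares of all genes. The median of this list was -0.66. The endoglucanase gene GH9C2 went from 926.4 and 1051.8 to 228.4 and 227.2 (-2.04 ± 0.11) and the xyloglucan transferase gene XTH19 from 775.2 and 485.7 to 217.5 and 165.1 (-1.62 ± 0.21). GH9B8 had a log2 fold change of -1.90 ± 0.48, with arrays at 37 °C as far apart as 73.2 and 6.3, and without the til1-1 array of replicate 2 at 22 °C its limma adjusted p was 0.0512.

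Subtilases, secreted proteases, split into called and uncalled members: 5 of 9 fell, by 1.42 to 2.58 on the log2 scale, and 4 were not called. Among all genes 30.5% were lower, and this list was added after the data were seen. SBT4.12 went from 1299.0 and 1544.8 to 256.1 and 194.8, and SBT1.3 from 1528.6 and 1520.6 to 562.3 and 338.0. Markers of root tissue fell together with these genes: EXPA7, EXPA18 (-1.61) and the root glucosidase gene PYK10, from 15847.0 and 16160.1 to 8842.7 and 8972.9 (-0.84 ± 0.07), were all lower, 3 of 3. Of 5 leaf photosynthesis markers 4 were higher and 1 lower, beside 11.6% higher and 30.5% lower among all genes. After quantile normalization 0 of these markers were higher and 2 lower, and by the spiked controls 1 was higher and 1 lower. The part of tissue composition in the falls was not tested.

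Families of enzymes of specialised metabolism are read against the 30.5% of all genes that were lower and the 11.6% that were higher. Of 13 tested cytochrome P450 genes, among 22, 10 fell and none rose, with a median of -0.77 against -0.18 over all genes. CYP71B23 went from 295.7 and 377.1 to 73.4 and 71.9 (-1.98 ± 0.28). With array medians set equal or after quantile normalization 4 of the 13 were lower. Of 17 tested serine carboxypeptidase-like genes, among 29, 13 fell and none rose, with a median of -0.81, and scpl31 fell most, from 128.1 and 200.9 to 47.9 and 44.5. Of 13 family 1 beta-glucosidase genes 7 fell and none rose, led by BGLU33, from 327.2 and 431.4 to 48.5 and 40.4. In this family 2 were lower with array medians set equal and 12 after scaling to spiked controls. The 38 tested UDP-glycosyltransferases of 51, which attach sugars to small molecules, gave 13 falls and 3 rises, shares near those of all genes, with a median of -0.27. UGT73C1 rose from 5.7 and 34.1 to 105.3 and 76.0 (1.68, and 1.08 with a limma adjusted p of 0.0549 without the til1-1 array of replicate 1 at 22 °C), and UGT71B1 fell from 315.5 and 321.5 to 117.6 and 99.5. Their median was 0.02 with array medians set equal, where 9 were higher and 5 lower.

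Genes of growth and transport gave few calls of large size. Of 7 histone genes 3 fell and 0 rose, beside 30.5% lower and 11.6% higher among all genes. All 3 called encode histone H2B: HTB1 fell from 616.4 and 661.1 to 271.3 and 204.9 (-1.38 ± 0.14), HTB11 by 0.97 and HTB2 by 0.96. GTR2, a transporter of glucosinolates, went from 1271.2 and 1468.7 to 435.4 and 447.8 (-1.60 ± 0.10), while its paralogue GTR1 had a log2 fold change of -0.06 and did not pass, though it was called lower, at -0.52, after scaling to spiked controls. RR16, a response regulator of cytokinin signalling, fell from 441.6 and 369.9 to 108.7 and 117.5 (-1.70 ± 0.15). Of 10 tested tau and phi glutathione transferases 1 rose and 3 fell, of 8 aldehyde dehydrogenases 4 rose and 1 fell, and of 10 auxin genes 1 rose and 2 fell, beside 11.6% higher and 30.5% lower among all genes. The shares of the glutathione transferases lie at this background. The rises of the aldehyde dehydrogenases were not kept under every scaling. Quantile normalization called 0 of these 8 genes higher and 2 lower, and the spiked controls called 0 higher and 4 lower. Equal array medians gave 5 higher and 0 lower. Of 5 enzymes of the ascorbate-glutathione cycle 1 rose and 2 fell, beside the same 11.6% higher and 30.5% lower among all genes. Genes often used as references did not move alike: SAND fell from 729.2 and 673.1 to 477.6 and 409.7 (-0.64 ± 0.11), and TIP41 and PEX4 each had a log2 fold change of 0.01 that did not pass. Both were called higher with array medians set equal, at 0.34 and 0.35, and lower after scaling to spiked controls, at -0.45 and -0.46.

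**Figure D3:**
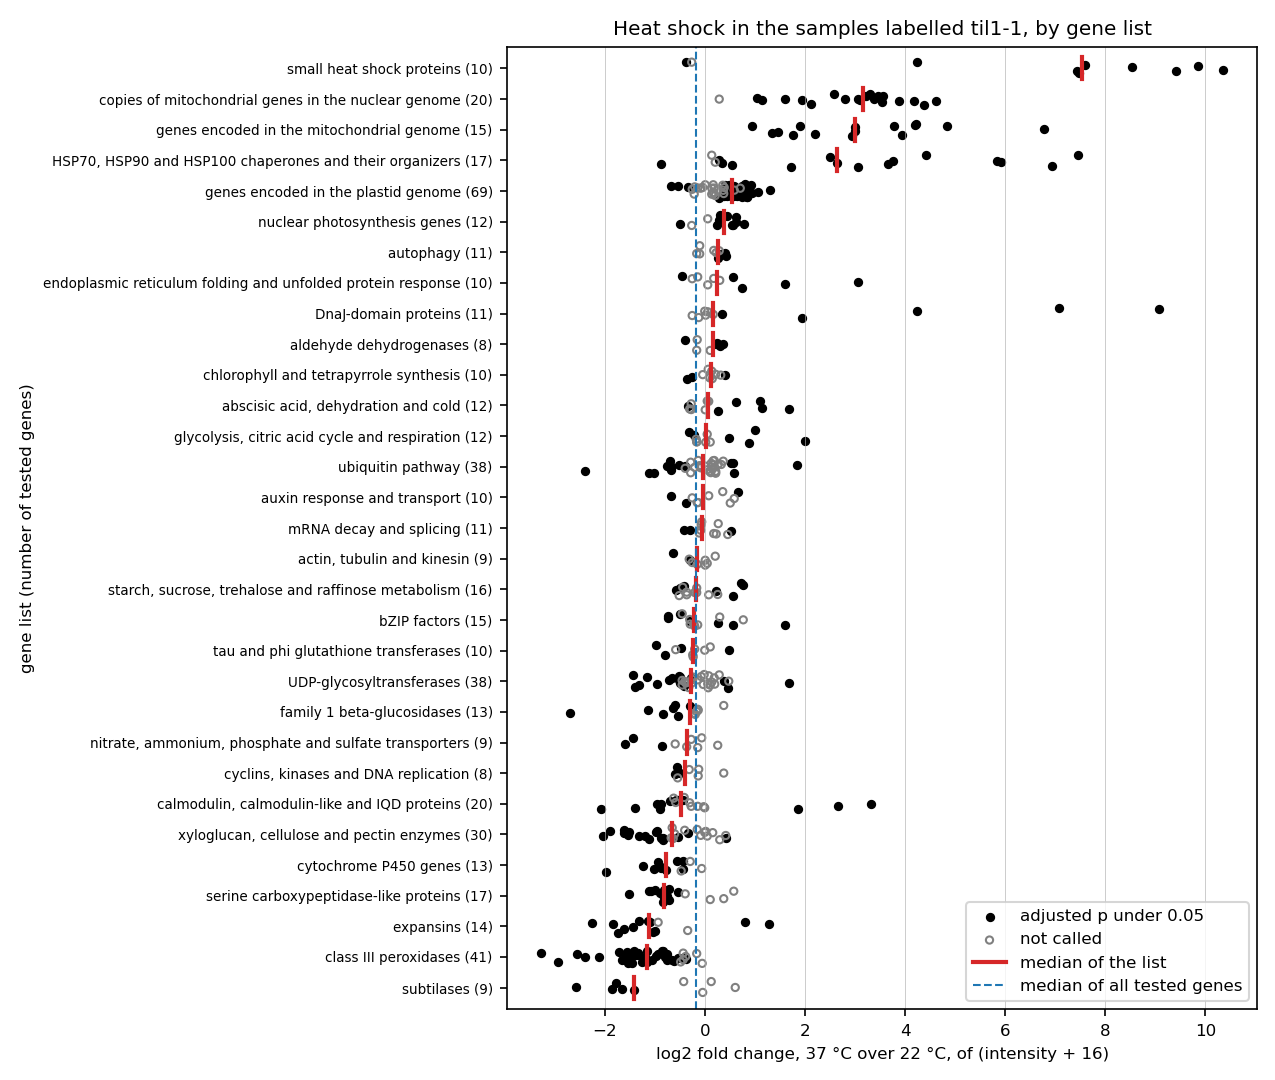
Log2 fold change (37 °C over 22 °C, of intensity plus 16) of every tested gene in the lists with at least 8 tested members, in the samples labelled til1-1. Filled points passed at an adjusted p under 0.05 and open points did not. A red bar marks the list median, from 7.53 for small heat shock proteins to -1.42 for subtilases, and the dashed line the median of all genes at -0.18. The lists of subtilases and of nuclear copies of mitochondrial genes were added after the data were seen.

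The size of a shared shift depended on the scaling. Between the setting with the highest and the lowest values the median of the class III peroxidases went from -0.87 to -1.60, that of the mitochondrial genes from 3.30 to 2.55, and that of all genes from 0.13 to -0.62. The peroxidase and expansin medians stayed below, and the mitochondrial and plastid medians above, that of all genes in each of the 4 scalings. The median of nuclear photosynthesis genes lay above it in 3, and after quantile normalization, at -0.16, below the -0.05 of all genes.

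**Figure D4:**
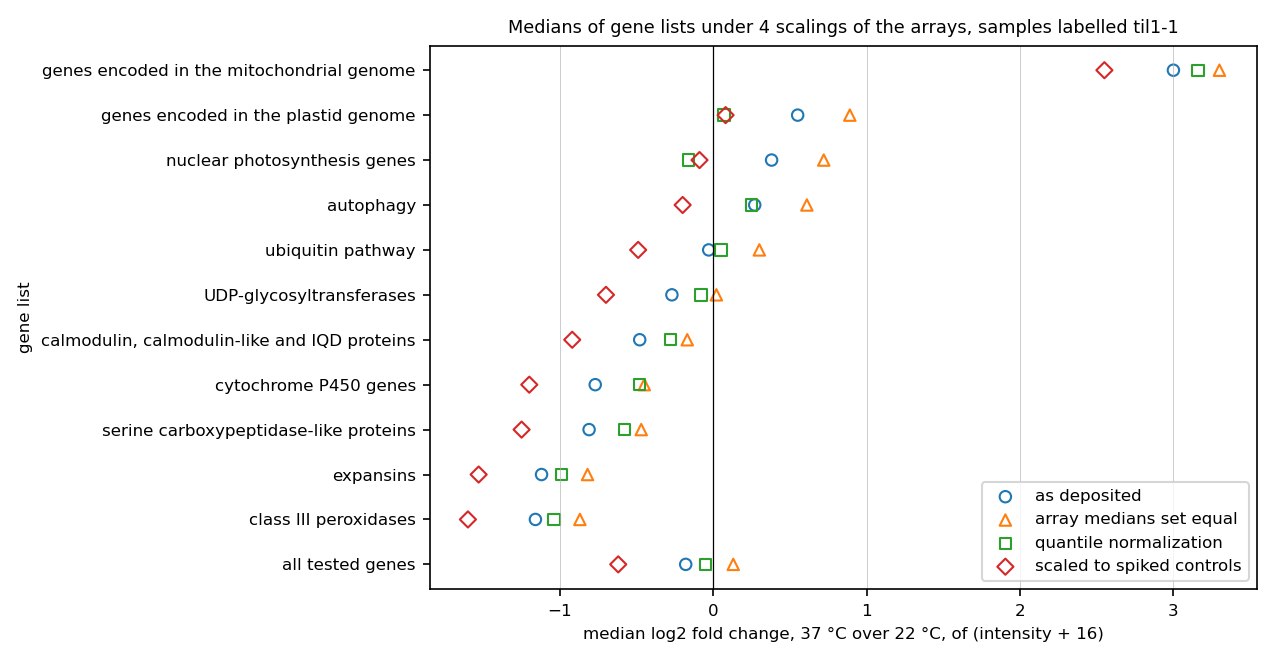
Median log2 fold change (37 °C over 22 °C, of intensity plus 16) of 11 gene lists and of all tested genes in the samples labelled til1-1, with 1 marker for each of the 4 scalings of the arrays. Mitochondrial genes lie between 2.55 and 3.30 and class III peroxidases between -1.60 and -0.87, while nuclear photosynthesis genes lie on either side of 0.

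Wild type was compared only to ask where the response of the samples labelled til1-1 differed. Of 17059 probe sets the interaction called 1 (0.00586% called), that of TIL, described above, and 1156 had an unadjusted p under 0.05. The counts per gene in wild type were 1024 higher (11.0% called) and 2826 lower (30.4% called). Medians in wild type were 7.29 for small heat shock proteins, 2.88 for mitochondrial genes and -0.94 for class III peroxidases. The 9 further genes with the smallest interaction p were not called and were chosen after their values were seen. Among them, rpl36 had a log2 fold change of -0.54 in the samples labelled til1-1 and 0.08 in wild type, a difference of -0.63 (95% confidence interval -0.87 to -0.38) with a limma adjusted p of 0.552. The other 8 all had an adjusted p of 0.6. AT3G56270 had the largest difference among them, with arrays labelled til1-1 at 74.9 and 72.2 before and 1.5 and 7.2 after heat shock, a log2 fold change of -2.15 against 0.03. For AT1G72900 the values were 0.90 and 1.70, for AT5G40450 -0.45 and -0.99, for AT2G18690 -0.55 and 0.23, for AT5G64100 -1.38 and -0.65, for PIA1 -0.07 and 0.49 and for AT5G35680 -0.11 and 0.38. That these differences missed the threshold does not show that the responses were alike.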

How the data were processed

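RNA of 8 samples was measured on 1-colour arrays of 22810 probe sets. The deposited values are intensity units on a linear scale made by the authors with GCOS, per the submitters' processing notes, which name no version. With extreme values trimmed, the mean intensity lay between 500 and 500.1 units on all 8 arrays. Median intensities of the samples labelled til1-1 fell, from 197.4 and 203.9 units before heat shock to 160.1 and 156.4 after. Calls as deposited are therefore relative to a shared mean. Arrays carry no read depth, and their number limits the precision.

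From these values, log2(intensity + 16) was fitted in limma 3.58.1 (R 4.3.3) with 4 group means and eBayes with an intensity trend, without 64 control probe sets and the dimmest 25% (17059 tested). Benjamini-Hochberg adjustment ran over all tested probe sets. Genes came from probe sets with 1 annotated gene, the one of highest mean per gene. Loci come from the annotation, and some names and all roles from general knowledge. The fit was tested on simulated data with few changed probe sets and no shift between arrays. That test does not bear on the choice of scaling.

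Named were the 25 largest rises and falls with groups that do not overlap, TIL, members of short lists, and up to 4 largest rises and falls of longer lists. The members and lists were chosen with earlier results of these data known. Outside the rule, and chosen after their values were seen, were HSP18.5, HSP21.7, Hop1, Hop2, SGT1A, SQN, AT3G12050, Cpn60beta2, CYTC-1, GTR1, PRXR1, psaB, psbA and the mitochondrial genes past the 4 largest. The lists of subtilases and of nuclear copies of mitochondrial genes were added after seeing the data, as were list counts under other scalings. The alternatives were other constants, filters, scalings, samples and moderation, and a replicate block.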

Additional observations from a re-analysis of the deposited data

Results flagged for a closer look

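The heat response of TIL differed between genotypes by the interaction test, with a log2 difference of -1.75 (95% confidence interval -2.02 to -1.47, limma adjusted p 0.000204, and 0.106 without an intensity trend). Both arrays labelled til1-1 at 37 °C read below both wild-type arrays at 37 °C.

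The control probe set for 25S ribosomal RNA, which entered no comparison, was 8.86-fold brighter at 37 °C than at 22 °C as a ratio of means in the samples labelled til1-1, at 2398.8 and 3625.1 against 269.8 and 410.4 units. The groups did not overlap. In wild type the probe set was also brighter at 37 °C, at 1828 and 3967 against 335.3 and 368.6 units. The part of this signal in other results was not tested.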

How the results depend on the processing

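The counts of calls depended most on scaling. With array medians set equal 5035 probe sets were higher and 2541 lower (1077 and 708 by at least 2-fold), and after scaling to spiked controls 807 were higher and 11375 lower, 4146 of them by at least 2-fold. The count lower by at least 2-fold was also 961 after quantile normalization, 805 with a constant of 64 and 801 with the dimmest 50% left out. Leaving out each array labelled til1-1 in turn gave 1708 to 1945 higher and 3830 to 5106 lower calls, 666 to 713 and 1343 to 1738 by at least 2-fold, and 1 to 2 interaction calls. The second interaction call was AT3G25290 (-2.36) without replicate 1 at 37 °C and AT3G06840 (-2.59) without replicate 2 at 37 °C. Without an intensity trend the 1 interaction call was AT5G59700 (-1.90, limma adjusted p 0.0445) and not TIL. Among single genes, RCA (-0.18) and PSAE-1 (-0.03) reversed after quantile normalization and rps18 (0.01) with array medians set equal. Deviations of same-numbered arrays from their group means correlated over probe sets at 0.0351 between the til1-1 groups, 0.142 between genotypes at 22 °C, 0.111 between genotypes at 37 °C, and -0.0355 to 0.0812 for the other pairs of groups. Not every pair exceeded 0.1, so the numbers were not taken to pair the samples. With a replicate block 2241 were higher and 5512 lower (676 and 1527 by at least 2-fold, 1 interaction call). The cause of these changes was not tested.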
